A study of Mus musculus with 10 samples.

Results

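The insulin-like growth factor (IGF) binding protein genes of the mouse heart, Igfbp2 to Igfbp7, were described together with the growth factor gene Igf2 and its receptor gene Igf2r. These 8 genes were chosen by name, and their identifiers were found among the 56748 gene identifiers of the count tables through GENCODE. All 8 were among the 15454 genes with enough reads for a test. The study asked how the heart of the mouse responds to forced endurance running.

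RNA was sequenced from the whole hearts of 10 wild-type C57BL/6 mice, 5 that trained on a treadmill and 5 of the same age that stayed sedentary. Training lasted 8 weeks, at 15 m/min for 120 min a day on 5 days a week, and followed a rest period and a graded acclimatization. Each heart, with both atria and the ventricles, gave 1 library of polyadenylated RNA, so all cell types of the organ were read as a mixture. The time of day of tissue collection was not given in the sources used here.

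IGF1 and IGF2 are small secreted peptides that act on heart cells mainly through the IGF1 receptor, a tyrosine kinase linked to growth and survival of cardiomyocytes. The IGF binding proteins hold these peptides outside cells, lengthen their lifetime and limit or direct their access to the receptor, and proteases release the peptides again. IGF2R does not signal as the IGF1 receptor does. It takes up IGF2 for breakdown in lysosomes and also carries lysosomal enzymes that bear a mannose 6-phosphate tag.

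The binding proteins share a cysteine-rich amino-terminal region that contacts the growth factor. The 19 codons around its cluster of neighbouring cysteines are shown for each binding protein gene because they show what makes these genes a family and which of them depart from it. They were read from the coding strand of the GRCm39 genome, each within a coding exon of the canonical transcript, with cysteine codons in capitals.
Igfbp2, chr1:72863937-72863993, plus strand: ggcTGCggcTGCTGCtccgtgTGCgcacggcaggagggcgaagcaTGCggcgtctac
Igfbp3, chr11:7163533-7163589, minus strand: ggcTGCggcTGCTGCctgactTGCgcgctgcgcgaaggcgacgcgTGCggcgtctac
Igfbp4, chr11:98932476-98932532, plus strand: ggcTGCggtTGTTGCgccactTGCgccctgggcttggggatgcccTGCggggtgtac
Igfbp5, chr1:72913092-72913148, minus strand: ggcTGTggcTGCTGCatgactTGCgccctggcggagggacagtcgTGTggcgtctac
Igfbp6, chr15:102053151-102053207, plus strand: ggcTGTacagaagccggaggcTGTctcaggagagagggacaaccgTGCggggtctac
Igfbp7, chr5:77555640-77555696, minus strand: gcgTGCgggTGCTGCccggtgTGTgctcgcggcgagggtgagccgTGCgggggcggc
Igfbp2, Igfbp3, Igfbp4, Igfbp5 and Igfbp7 each had 5 cysteine codons in this stretch, with a pair of them adjacent. Igfbp6 had 3 and no adjacent pair, and its stretch was placed by the codons it shares with the others at the far end. Igfbp7, whose product binds IGFs weakly, lacked those shared end codons.

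The genes lie at 7 places in the GRCm39 genome, with Igfbp2 and Igfbp5 as neighbours on chromosome 1. Igfbp2 (ENSMUSG00000039323, chr1:72863606-72891634, plus strand) and Igfbp5 (ENSMUSG00000026185, chr1:72897091-72914043, minus strand) were 5456 bases apart. Igfbp3 (ENSMUSG00000020427, chr11:7156086-7164179, minus strand) lay 3539 bases from Igfbp1, while Igfbp4 (ENSMUSG00000017493, chr11:98932064-98945218, plus strand) was elsewhere on the same chromosome. Igfbp6 (ENSMUSG00000023046) spanned chr15:102052697-102057953 on the plus strand, and Igfbp7 (ENSMUSG00000036256) spanned chr5:77493130-77555931 on the minus strand. Igf2r (ENSMUSG00000023830) occupied chr17:12901293-12988614 on the minus strand with 48 exons in its canonical transcript. Igf2 (ENSMUSG00000048583) occupied chr7:142204503-142220694 on the minus strand, 70545 bases from H19, a noncoding RNA gene that shares its imprinted domain.

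The libraries held 29461697 to 35945417 gene counts in training hearts and 35196993 to 39431030 in sedentary hearts. Genes that define cardiomyocytes, fibroblasts, endothelium and 11 further cell types or regions were all read, with 0 of 81 marker genes at 0 counts. Of the 78 marker genes tested, 6 were higher and 5 lower in training hearts at an adjusted p below 0.1 with edgeR. Over all genes tested, 2.75% were higher and 4.26% lower. Among the lists, 2 of 6 atrial markers and 2 of 7 fibroblast markers were higher, with median log2 fold changes of 0.62 and 0.20. Of the skeletal muscle markers, 2 of 4 tested were lower, with a median of -0.30. These were Acta1 (6352 to 23925 reads per heart) and Ckm (48312 to 72295), while Tnni2 and Tnnt3 were not called. Myh1, Myh2 and Myh4 of that list had at most 4 reads in any heart and were not tested. For cardiomyocytes and for endothelium, 1 of 7 markers was lower. Mural cell markers had 1 higher and 1 lower of 8, endocardial markers had 1 higher of 4, and the other lists had 0 called. Of 14 circadian clock genes, 5 were higher and 3 lower, and the collection time could not be compared between groups. In whole hearts, fewer cells of a type and less RNA per cell cannot be told apart.

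None of the 8 genes differed between training and sedentary hearts at the study's threshold, an adjusted p below 0.1. With edgeR's quasi-likelihood test, 0 of 8 passed, against 7.01% of all genes tested (2.75% higher and 4.26% lower), and DESeq2 also called 0, against 8.90% of its genes. At an unadjusted p below 0.05, edgeR gave 2 of the 8, Igfbp3 and Igfbp4, beside 20.0% of all genes tested, and DESeq2 gave 1, Igfbp4, beside 18.9%. These shares of the 8 genes were near the background. The estimate lay above 0 for 7 genes and below 0 for 1, with a median log2 fold change of 0.16 beside 0.00026 over all genes tested. In none of the 8 were the groups free of overlap, which was the case for 5.06% of all genes tested. Levels between groups are given as CPM, the reverse-strand counts of a gene divided by the library total in units of 1000000, with totals scaled by TMM factors.

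**Figure D1:**
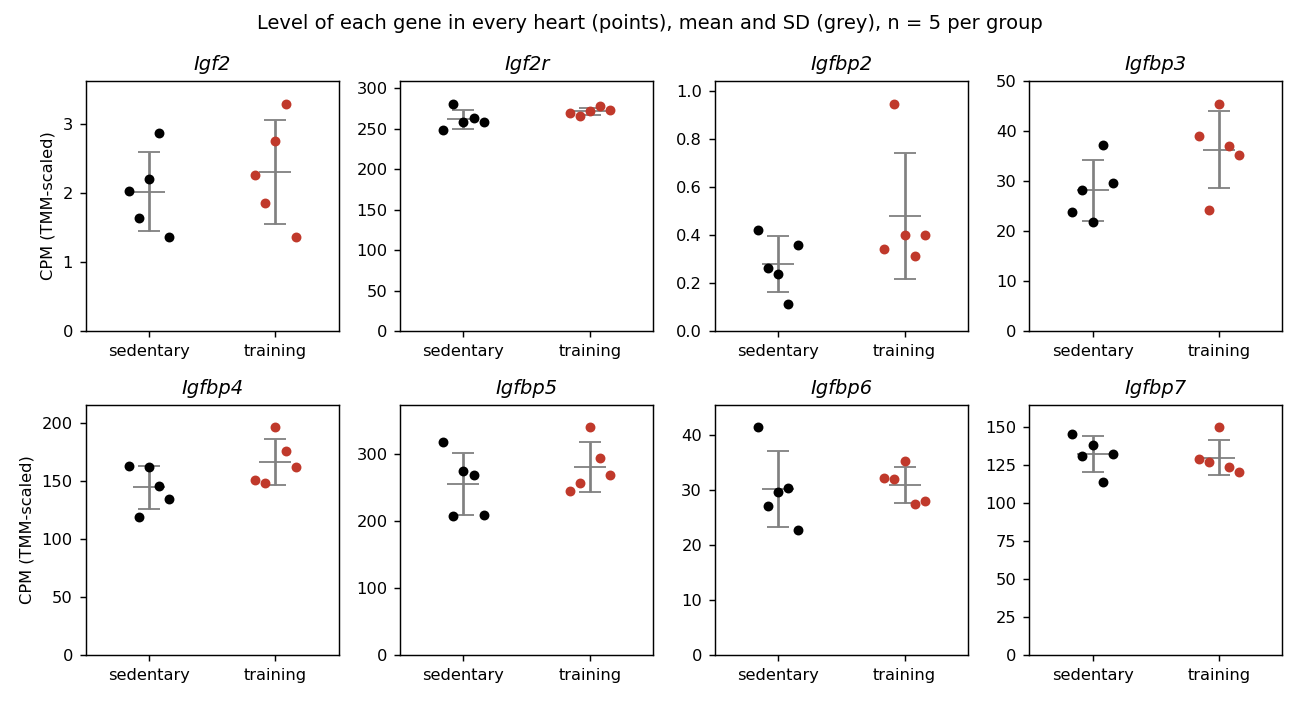
Level of each of the 8 genes in every heart, in TMM-scaled CPM on linear axes that start at 0, with sedentary hearts in black and training hearts in red; grey bars give the mean and SD of 5 hearts. The groups overlap in all 8 panels, and training heart 2 stands apart for Igfbp2 at 0.945 CPM.

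Igf2 encodes the growth factor itself, which is abundant in the fetus and low in the adult mouse. In training hearts 1 to 5, Igf2 was measured at 2.26, 1.86, 2.76, 3.30 and 1.36 CPM. In sedentary hearts 1 to 5, it was measured at 2.04, 1.64, 2.21, 2.87 and 1.37 CPM. Both groups covered nearly the same range, and the highest and the lowest value were both in training hearts. The means were 2.31 ± 0.756 and 2.02 ± 0.578 CPM (SD, n = 5 each), a log2 fold change of 0.19 with a standard error of 0.23 (edgeR, adjusted p = 0.698). It ranged from 0.04 without training heart 4 to 0.35 without sedentary heart 4.

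The Igf2 counts rested on few reads, and the gene shares exons with others. Of its 6162 exonic bases, 3599 are also exons of the same-strand genes Gm49394, a protein-coding gene, and Mir483, a microRNA gene. That leaves 41.6% to Igf2 alone. STAR's gene counts take only reads that belong to 1 gene, and they held 767 Igf2 reads over the 10 hearts, between 41 and 106 per heart. RSEM, which divides ambiguous reads among transcripts, assigned 17061 reads to Igf2, between 1087 and 2379 per heart. That was 22.2 times the STAR count, whereas the same ratio lay between 0.960 for Igf2r and 0.978 for Igfbp2 among the other genes. STAR counted 2 reads for Gm49394 in all 10 hearts.

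**Figure D2:**
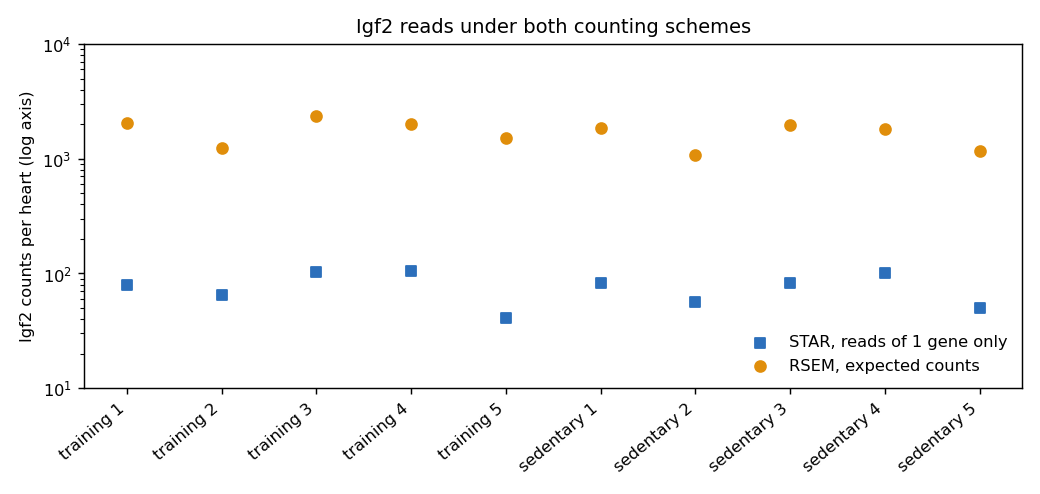
Igf2 reads in each of the 10 hearts on a log axis, as STAR counts of reads that belong to 1 gene (blue squares) and as RSEM expected counts (orange circles). STAR gave 41 to 106 reads per heart and RSEM 1087 to 2379.

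With the RSEM expected counts, Igf2 still did not pass the test. In TPM, the transcript share of a library after correction for transcript length, Igf2 stood at 18.5, 11.5, 21.6, 23.5 and 17.3 in training hearts 1 to 5. The sedentary hearts 1 to 5 gave 15.7, 9.48, 16.9, 16.7 and 9.99 TPM. Training hearts 1, 3, 4 and 5 lay above all sedentary hearts, and training heart 2 lay below sedentary hearts 1, 3 and 4. The edgeR log2 fold change on RSEM counts was 0.34 with a standard error of 0.17 (adjusted p = 0.308).

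Igf2r encodes the clearance receptor of IGF2. It stood at 270.0, 266, 273, 278 and 273 CPM in training hearts 1 to 5. Sedentary hearts 1 to 5 gave 248, 281, 258, 263 and 258 CPM. All training hearts except number 2 and all sedentary hearts except number 2 fell on separate sides of 268 CPM, and sedentary heart 2 was the highest of all. The means of 272 ± 4.44 and 262 ± 12.1 CPM (SD, n = 5 each) gave a log2 fold change of 0.06, with a 95% interval from -0.03 to 0.14 (edgeR, adjusted p = 0.471). In percent, the interval ran from -1.99 to 10.1, the narrowest among the 8 genes. Airn, a noncoding RNA read from the opposite strand of the same locus, was counted as its own gene. Igf2r shared 0 exonic bases with genes of the opposite strand.

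Igfbp3 encodes the main carrier of IGFs in blood. It was measured at 39.1, 24.3, 45.5, 37.0 and 35.3 CPM in training hearts 1 to 5. The values in sedentary hearts 1 to 5 were 23.8, 28.2, 21.7, 37.3 and 29.7 CPM. Training hearts other than number 2 were all above 35 CPM, a level that only sedentary heart 4 reached in its group. The means were 36.3 ± 7.69 and 28.2 ± 6.04 CPM (SD, n = 5 each). The log2 fold change of 0.37 had a standard error of 0.16 and a 95% interval from 0.03 to 0.70 (edgeR, unadjusted p = 0.0338, adjusted p = 0.208). Without training heart 2, the log2 fold change was 0.48 and passed the threshold (edgeR, adjusted p = 0.0624). No other fit that left out 1 heart passed. Over these fits it ranged from 0.27 without training heart 3 (edgeR, adjusted p = 0.407) to 0.49 without sedentary heart 4 (adjusted p = 0.110).

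Igfbp4 encodes a binding protein that is cleaved by the protease PAPPA to free bound IGF. Its levels were 151, 149, 197, 176 and 163 CPM in training hearts 1 to 5. In sedentary hearts 1 to 5, they were 163, 119, 162, 146 and 134 CPM. All 5 training hearts lay above the sedentary mean, but training hearts 1 and 2 lay below sedentary hearts 1 and 3. The means of 167 ± 19.8 and 145 ± 18.7 CPM (SD, n = 5 each) gave a log2 fold change of 0.21, with a 95% interval from 0.01 to 0.40 (edgeR, unadjusted p = 0.0426, adjusted p = 0.232).

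Igfbp5 encodes a binding protein that attaches to the extracellular matrix. Training hearts 1 to 5 had 245, 256, 339.9, 294 and 269 CPM. Sedentary hearts 1 to 5 had 318, 207, 274, 269 and 209.5 CPM. The lowest values were those of sedentary hearts 2 and 5, and sedentary heart 1 was above every training heart except number 3. The means were 281 ± 37.6 and 255 ± 47.0 CPM (SD, n = 5 each), and the log2 fold change was 0.14 with a 95% interval from -0.11 to 0.39 (edgeR, adjusted p = 0.560). It ranged from 0.06 without training heart 3 to 0.23 without sedentary heart 1.

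Igfbp6 encodes a binding protein that prefers IGF2 to IGF1. Its levels were 32.2, 31.9, 35.3, 27.4 and 28.0 CPM in training hearts 1 to 5 and 41.4, 27.1, 29.6, 30.3 and 22.7 CPM in sedentary hearts 1 to 5. All training values fell inside the sedentary range. The log2 fold change was 0.04 with a 95% interval from -0.24 to 0.31 (edgeR, adjusted p = 0.908).

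Igfbp7 encodes a secreted protein of vessel walls with low affinity for IGFs. It had 129, 127, 149.8, 124 and 120.3 CPM in training hearts 1 to 5 and 146, 131, 138, 114 and 132 CPM in sedentary hearts 1 to 5. It was the only gene of the 8 with an estimate below 0, at a log2 fold change of -0.02 with a 95% interval from -0.17 to 0.12 (edgeR, adjusted p = 0.881). With library totals in place of TMM factors the estimate was 0.03, so its direction depended on the scaling.

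Igfbp2 encodes a binding protein that is mostly made by liver and fat in the adult, and it was barely read in these hearts. Training hearts 1 to 5 held 12, 33, 15, 10 and 12 reads, and sedentary hearts 1 to 5 held 17, 9, 9, 4 and 13. In CPM, training heart 2 reached 0.945 and the other training hearts 0.311 to 0.402, inside the sedentary range of 0.114 to 0.422. The log2 fold change of 0.76 had a 95% interval from -0.04 to 1.57 (edgeR, adjusted p = 0.272), and it was 0.36 without training heart 2.

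Levels were compared between genes on the TPM scale, where Igfbp7 was the highest of the 8 by median and Igfbp2 the lowest. Igfbp7 had a median of 128 TPM over the 10 hearts, Igfbp4 84.5, Igfbp5 46.8 and Igf2r 30.4. Igfbp6 followed with 29.6 TPM, Igf2 with 16.8, Igfbp3 with 13.8 and Igfbp2 with 0.31. Igf2r and Igfbp6 did not differ beyond their spread, with Igf2r above Igfbp6 in 5 of 10 hearts. Igf2 was above Igfbp3 in 8 of 10 hearts with overlapping ranges, and every other pair of neighbours kept its order in 10 of 10 hearts. The step from Igfbp3 to Igfbp2 was the widest, with a median ratio of 49.2.

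**Figure D3:**
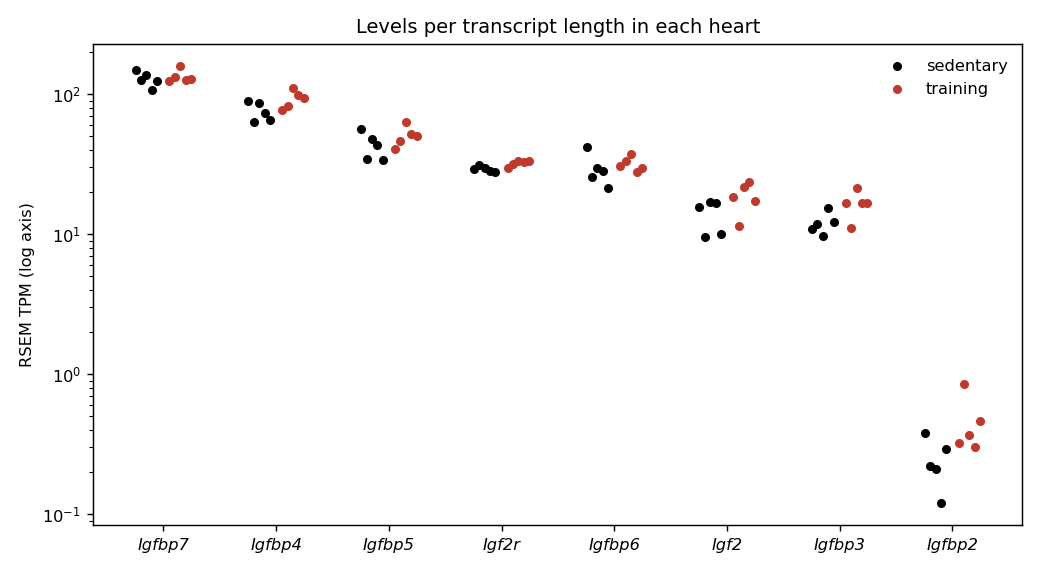
RSEM TPM of the 8 genes in each heart on a log axis, sorted by the median over 10 hearts, with sedentary hearts in black and training hearts in red. Igfbp7 leads at a median of 128 TPM, and Igfbp2 lies at 0.31 TPM.

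The binding protein transcripts added up to 290.3 to 393 TPM in training hearts and 258 to 349 TPM in sedentary hearts, with medians of 319.5 and 268. Igfbp7 made up 39.2 to 43.2% of that sum in training hearts and 39.9 to 48.2% in sedentary hearts. Igfbp4 contributed 26.7 to 30.6% and 24.3 to 27.8%. For each TPM of the growth factor genes Igf1 and Igf2 together, the hearts held 11.0 to 18.4 TPM of binding protein transcripts after training and 12.7 to 18.3 in the sedentary group. In RSEM TPM, Igf2 exceeded Igf1 2.27 to 4.55 times in training hearts and 1.98 to 3.85 times in sedentary hearts. This order rested on RSEM's division of ambiguous reads, and RSEM's strand setting was not given in the sources used here. In the STAR counts, which leave out reads shared with Gm49394, Igf1 had 5.42 to 13.7 times the CPM of Igf2 over the 10 hearts. The order of the growth factor genes, the place of Igf2 among the 8 and the ratio of binding protein to growth factor transcripts therefore depended on the counting. The ranges of the groups overlapped for each of the TPM quantities.

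The levels of Igfbp4 and Igfbp5 followed each other from heart to heart within both groups. With group means removed, Pearson's r between their log2 CPM was 0.932 over the 10 hearts (exact permutation test within groups, two-sided, p = 0.000139, adjusted p = 0.00528). Spearman's rho of the ranks within groups was 0.95 (exact permutation p = 0.00125, adjusted p = 0.0475). Within training hearts r was 0.981 and within sedentary hearts 0.911, and it was 0.921 without sedentary hearts 2 and 5, the farthest from the median of the Igfbp5 range. These were among 38 relations computed, 28 of them between pairs of the 8 genes, and they were selected after the values had been seen. No other pair of the 8 had an adjusted p below 0.05.

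Their promoters are shown because both genes moved together. The 200 bases before each canonical start site were taken from GRCm39 and written in the direction of the gene, at chr11:98931864-98932063 on the plus strand for Igfbp4 and at chr1:72914044-72914243 on the minus strand for Igfbp5. Both strands were searched for the TATA motif TATAAA, the GC box GGGCGG, the E-box CACGTG and the CCAAT box, and matches are in capitals.
Igfbp4: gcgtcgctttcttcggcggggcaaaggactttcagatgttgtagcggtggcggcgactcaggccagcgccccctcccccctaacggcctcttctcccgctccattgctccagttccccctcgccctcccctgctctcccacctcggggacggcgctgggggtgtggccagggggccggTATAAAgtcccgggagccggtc
Igfbp5: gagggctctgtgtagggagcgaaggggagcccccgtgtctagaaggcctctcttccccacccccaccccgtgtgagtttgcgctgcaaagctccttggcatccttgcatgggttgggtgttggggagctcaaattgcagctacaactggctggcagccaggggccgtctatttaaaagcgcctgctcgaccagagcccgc
Igfbp4 held TATAAA, which occurred in 5.61% of 13562 promoters of the same length. Igfbp5 held no exact match to the 4 motifs in this window. Near matches, such as its tatttaaaa close to the start site, were not counted. The other shares were 46.5% for GGGCGG, 6.68% for CACGTG and 31.7% for CCAAT.

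Igfbp5 and Igfbp4 also followed the atrial marker genes. The atrial score, the mean centred log2 CPM of Nppa, Sln, Myl7, Myl4, Bmp10 and Dkk3, ran from 0.06 to 0.71 in training hearts and from -1.04 to 0.36 in sedentary hearts. Summed, the 6 markers reached 5053 to 7617 CPM in training hearts and 2789 to 6837 CPM in sedentary hearts, and none was at 0. Sedentary hearts 2 and 5 had the lowest atrial sums and the lowest Igfbp5 levels. The same 2 hearts also had the lowest endocardial scores (-0.28 and -0.42) and the lowest epicardial scores (-0.31 and -0.49). In the training group, hearts 2 and 5 had the lowest atrial sums too (5409 and 5053 CPM). The lowest Igfbp5 levels of that group were in hearts 1 and 2 (245 and 256 CPM). Relations with the scores of other marker lists were not computed, so the pattern is not shown to be particular to atrial markers. With group means removed, r with the score was 0.922 for Igfbp5 (n = 10 hearts, exact permutation p = 0.00208, adjusted p = 0.0264) and 0.829 for Igfbp4 (exact permutation p = 0.00639, adjusted p = 0.0486). The rank correlations were 0.80 for Igfbp5 and 0.90 for Igfbp4, and neither passed after adjustment (exact permutation, adjusted p = 0.146 and 0.0545). Without sedentary hearts 2 and 5, r was 0.805 for Igfbp5 and 0.670 for Igfbp4. That check kept training hearts 2 and 5. For Igfbp6, r was 0.793 (exact permutation, adjusted p = 0.112).

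**Figure D4:**
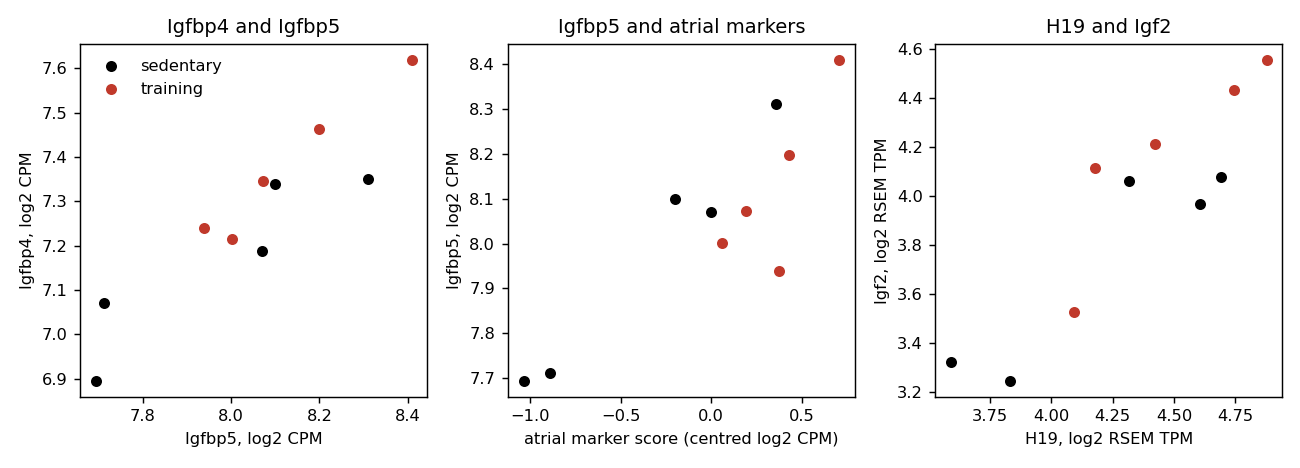
Each point is 1 heart, sedentary in black and training in red, plotted as log2 CPM of Igfbp4 against Igfbp5 (left), log2 CPM of Igfbp5 against the atrial marker score (middle) and log2 RSEM TPM of Igf2 against H19 (right). Sedentary hearts 2 and 5 lie at the lower left of all panels, and group means are not removed in the plot.

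The group differences were fitted again with the atrial score as a covariate. Igfbp4 then had a log2 fold change of -0.02 in place of 0.21, and Igfbp5 had -0.18 in place of 0.14. Igf2 had -0.24 and Igfbp6 -0.25, so the estimates of these 4 genes lay below 0, whereas Igf2r, Igfbp2 and Igfbp3 stayed above 0 at 0.10, 0.99 and 0.28. None of the 8 passed the threshold in that fit (edgeR, adjusted p between 0.358 and 0.939), and 2, Igfbp5 and Igfbp6, had an unadjusted p below 0.05. The same covariate lowered the count over all genes from 1084 to 94. The score itself differed between groups (0.06 to 0.71 in training and -1.04 to 0.36 in sedentary hearts). This fit can therefore not fully separate the score from the group. The fibroblast score as a covariate, an alternative chosen after the data were seen, gave -0.03 for Igfbp4, -0.14 for Igfbp5 and -0.21 for Igfbp6, also with 0 of the 8 called (edgeR; 1, Igfbp7, at an unadjusted p below 0.05). The part of tissue composition in these levels was not tested further.

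**Figure D5:**
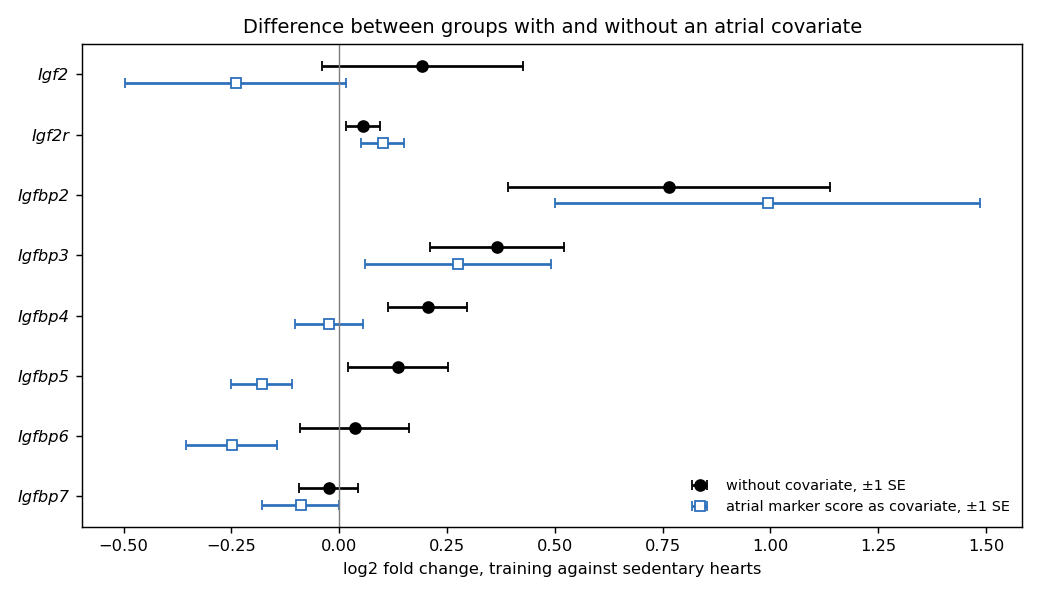
Log2 fold change of each gene between training and sedentary hearts from edgeR, without a covariate (black circles) and after adding the score of the atrial markers (blue squares); bars are ±1 standard error. Igf2, Igfbp4, Igfbp5 and Igfbp6 move from above to below 0.

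Igf2 and H19 varied together. H19 is transcribed from the maternal chromosome and Igf2 from the paternal one, under shared enhancers. H19 had 42.1, 30.5, 46.8, 52.0 and 30.0 CPM in training hearts 1 to 5 and 43.5, 27.0, 48.9, 38.8 and 23.0 CPM in sedentary hearts 1 to 5, with a log2 fold change of 0.15 (edgeR, adjusted p = 0.725). In RSEM TPM with group means removed, r between Igf2 and H19 was 0.896 (n = 10 hearts, exact permutation p = 0.00139, adjusted p = 0.0264) and Spearman's rho was 0.90 (exact permutation, adjusted p = 0.0545). On STAR's CPM, r was 0.840 (exact permutation, adjusted p = 0.0482) and rho 0.85 (exact permutation, adjusted p = 0.0884). Without sedentary hearts 2 and 5, r was 0.812 in TPM and 0.766 in CPM. In both groups, Igf2 CPM rose in the same order of mouse numbers, 5, 2, 1, 3 and 4. H19 CPM was lowest in numbers 5 and 2 of both groups. The permutation tests took all hearts as independent, so they cannot separate a relation of the genes from a factor shared by mouse number. Whether there was such a factor was not tested.

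The other genes of IGF handling were read from a list of 28, of which 23 had enough reads for a test. In that list 1 gene was higher and 0 were lower in training hearts with edgeR, and the median log2 fold change was 0.04. At an unadjusted p below 0.05, edgeR gave 9 of the 23, 5 higher and 4 lower. That was a larger share than the 20.0% of all genes tested, and the difference in share was not tested. After adjustment the share called was 4.35% of the list with edgeR, beside 7.01% of all genes, and DESeq2 called 3, Gnptab higher with Igfals and Igf2bp2 lower, the last 2 named after their values were seen. The gene that passed was Gnptab, which encodes the enzyme subunits that build the mannose 6-phosphate tag recognised by IGF2R. Gnptab stood at 45.4, 49.3, 44.5, 44.6 and 49.5 CPM in training hearts 1 to 5 and at 37.1, 39.0, 37.7, 42.0 and 40.9 CPM in sedentary hearts 1 to 5. Every training heart was above every sedentary heart. Its log2 fold change was 0.25 with a standard error of 0.049 (edgeR, adjusted p = 0.0218).

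The growth factor Igf1 and its receptor did not pass the main test, and the call of Igf1r depended on the setting. Igf1 had 18.7 ± 2.22 CPM in training and 17.9 ± 3.48 CPM in sedentary hearts (SD, n = 5 each), a log2 fold change of 0.06 (edgeR, adjusted p = 0.830). Igf1r had 56.5 ± 2.76 and 48.7 ± 6.61 CPM (SD, n = 5 each), a log2 fold change of 0.22 with all 5 training hearts above the sedentary mean (edgeR, adjusted p = 0.155). The range of Igf1r in training hearts, 52.2 to 59.3 CPM, overlapped with sedentary heart 2 at 55.8 CPM. Igf1r passed with library totals in place of TMM factors (log2 fold change 0.27, edgeR, adjusted p = 0.0939), with the mouse number as a replicate block (0.22, adjusted p = 0.0636) and with the clock gene score as a covariate (0.27, adjusted p = 0.0598).

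The protease gene Pappa, whose product cleaves IGFBP4, had 2.38 ± 0.395 CPM in training and 2.86 ± 0.329 CPM in sedentary hearts (SD, n = 5 each), a log2 fold change of -0.27 (edgeR, adjusted p = 0.266). Igfbp1, the liver-derived binding protein gene next to Igfbp3, had 0 reads in all training hearts and 1 read in sedentary heart 3 as its total. A count of 0 allows up to 3 reads, between 0.0835 and 0.102 CPM at the depth of the training libraries, counting error only. No difference in Igfbp1 was detectable at this depth.

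The genes whose heart-to-heart pattern was most like that of each member were found by Pearson's r of log2 CPM over the 10 hearts, with group means removed, among genes of at least 5 mean CPM. They were picked as the highest values among about 10240 genes, so r is given as a description with no test. For Igfbp5 the nearest were 6430548M08Rik (r = 0.972) and Sema3d, a secreted guidance protein gene (0.971). For Igfbp6 they were the tight junction gene Cldn15 (0.974) and Cyp2s1 (0.937). For Igfbp4 they were the kinase gene Camk1d (0.956) and Serping1, the inhibitor of complement C1 (0.953).

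For Igfbp3 the nearest patterns were Aldh1l2, a mitochondrial folate enzyme gene (0.943), and Pogz (0.938). Igf2r came closest to the kinase gene Map3k5 (0.939) and Tsen15 (0.932). Igfbp7 came closest to the lysosomal protease gene Ctsb (0.929) and Rhou (0.921). Igf2 came closest to Zfp410 (0.942) and Pdia3 (0.923), and Igfbp2, at its few reads, to Nudt5 (0.938) and Irx5 (0.935).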

How the data were processed

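Per the labels and the methods, the authors aligned single reads from strand-specific poly(A) libraries to GRCm39 with STAR 2.7.10a and computed expected counts and TPM with RSEM 1.3.3. The deposited STAR gene counts on the reverse strand were the measurement; the strand held 94.9 to 95.6% of stranded counts. The deposited RSEM expected counts (rounded) and TPM served for a further fit and for levels per length. Symbols, exons and positions came from GENCODE (GRCm39), which matched 56017 of 56748 identifiers.

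Genes were filtered with filterByExpr, scaled by TMM and tested between groups with edgeR 4.0.16 (quasi-likelihood F test, R 4.3.3), with Benjamini-Hochberg adjustment over 15454 genes and the study's threshold of 0.1. Standard errors came from the F statistic. DESeq2 1.42.0 was an alternative. Correlations used the 14400 rearrangements of hearts within groups. The scripts were tested on simulated data. Library pairs of a group differed by a chi-square of 6.16 to 27.4 per degree of freedom, so none was a duplicate. The samples are separate mice. The members and lists were chosen with earlier results of these data known. The genes named were the 8 members, the called genes of the IGF list with Igf1, Igf1r, Igfbp1, Pappa and H19, and the 2 nearest patterns of each member.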

Additional observations from a re-analysis of the deposited data

Results flagged for a closer look

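Igfbp2 in training heart 2 stood apart from its group, at 0.945 CPM (33 reads) against 0.311 to 0.402 CPM in the other training hearts. The gap took 0.858 of the group's range, above the critical ratio of 0.71 for 5 hearts. It was the only such heart in 16 group checks over the 8 genes, and chance marks about 1 group in 20.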

How the results depend on the processing

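Of 175 refits of single members, 158 kept direction and side of the threshold, 15 changed sign and 2 newly passed. The causes were not tested. Members called numbered 0 except 1 with the mouse number as a replicate block (Igfbp4, 0.21, edgeR adjusted p = 0.0972) and 0 to 1 when hearts were left out. Over all genes, hearts with the same mouse number were hardly related (residual r -0.10 to 0.16), and the block gave 1137 genes. Igf2 CPM, however, had the same order of mouse numbers in both groups. The block lowered the standard error of Igf2 from 0.232 to 0.115 and that of Igfbp4 from 0.092 to 0.062. It raised that of Igf2r from 0.039 to 0.043. Whether the numbers mark a shared batch was not tested, and the permutation tests took all hearts as independent. IGF list calls were 3 with DESeq2, with library totals, without a count filter and with the block, 6 with a score of 14 clock genes, and 1 to 4 when hearts were left out. All genes called numbered 505 at a threshold of 0.05, 94 with the atrial, 51 with the fibroblast and 473 with the adipocyte score (the last 2 chosen after seeing the data), and 512 to 1490 when hearts were left out, with 512 without training heart 4 or sedentary heart 3, 540 without training heart 3, 611 without sedentary heart 2 and 671 without sedentary heart 4. Library totals moved the median of all genes by 0.05 and gave 1029 higher and 339 lower, against 425 and 659. Log2 fold changes that changed sign were, with the atrial score, Igf2 -0.24, Igfbp4 -0.024, Igfbp5 -0.18 and Igfbp6 -0.25, and with the fibroblast score, Igfbp4 -0.034, Igfbp5 -0.14 and Igfbp6 -0.21. Igfbp6 was -0.0064 with the adipocyte score and -0.052 to 0.18 when hearts were left out, below 0 at -0.02 without training heart 3, -0.0014 without sedentary heart 2 and -0.052 without sedentary heart 5. Igfbp7 was 0.027 with library totals, 0.031 with the clock score and -0.081 to 0.012 when hearts were left out, above 0 at 0.0016 without training heart 5 and 0.012 without sedentary heart 1. Igfbp3 passed without training heart 2 (0.48) and in no other fit, at 0.27 to 0.49 when hearts were left out. Depth limited Igfbp2, with 4 to 33 reads per heart, and Igf2 in the STAR counts, with 41 to 106.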
